A study of Mus musculus with 2 samples.

Results

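Bdh1, Oxct1 and Acat1 encode the mitochondrial enzymes that turn the ketone body 3-hydroxybutyrate into acetyl-CoA. The members were the rows of the deposited count table with these gene symbols, and all 3 were present among the 19294 genes listed. Their NCBI gene identifiers are 71911 for Bdh1, 67041 for Oxct1 and 110446 for Acat1. The mRNA-seq data come from 1 untreated control culture and 1 culture treated with dextran sulfate sodium (DSS), a sulfated polysaccharide that injures the intestinal epithelium. Both were mouse intestinal organoids (mIOs), which are three-dimensional epithelial cultures grown from crypts, here of the jejunum. Both cultures were labelled Day 4, carried the genotype Lgr5-EGFP-IRES-creERT2, a reporter that places EGFP under control of Lgr5, and grew in medium with EGF, Noggin and R-spondin. The labels give neither the DSS dose of the sequenced culture nor the age of the mice. With 1 library per condition there is no replicate check and no test between conditions, and the intervals given here cover counting error only.

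Ketone bodies are small, water-soluble fuels made in mitochondria when fatty acids are oxidized faster than the TCA cycle takes up acetyl-CoA. Acetoacetate is made first, and BDH1 reduces it to 3-hydroxybutyrate. In cells that burn ketone bodies, BDH1 runs in reverse, OXCT1 (also called SCOT) attaches CoA taken from succinyl-CoA to acetoacetate, and ACAT1 splits acetoacetyl-CoA into acetyl-CoA. OXCT1 acts only in use, whereas BDH1 and ACAT1 act in both directions, and ACAT1 also completes the breakdown of isoleucine. In the intestine, colonic epithelium burns the short-chain fatty acid butyrate by related reactions.

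The start regions of the enzymes are shown because the measured difference between the libraries is one of transcript level. RefSeq sequences of GRCm38.p6 held 1 annotated start for Oxct1 and 2 for Bdh1, and Acat1 had no entry in the table used. Each line runs from 250 to 51 bases upstream of the start on the plus strand, with CpG dinucleotides in capitals. The Oxct1 window lies at chr15:4026178-4026377 and the Bdh1 windows at chr16:31422047-31422246 and chr16:31428503-31428702. None of them overlaps an exon of its gene in the GENCODE vM21 annotation.
Oxct1: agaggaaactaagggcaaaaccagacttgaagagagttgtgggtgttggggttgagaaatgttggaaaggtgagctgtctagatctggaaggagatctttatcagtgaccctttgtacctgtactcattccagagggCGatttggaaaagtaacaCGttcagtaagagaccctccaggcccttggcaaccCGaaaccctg
Bdh1, first start: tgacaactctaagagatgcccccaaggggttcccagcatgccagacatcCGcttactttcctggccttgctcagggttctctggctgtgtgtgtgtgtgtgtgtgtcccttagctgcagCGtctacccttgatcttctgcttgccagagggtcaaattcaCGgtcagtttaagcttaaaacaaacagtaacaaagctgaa
Bdh1, second start: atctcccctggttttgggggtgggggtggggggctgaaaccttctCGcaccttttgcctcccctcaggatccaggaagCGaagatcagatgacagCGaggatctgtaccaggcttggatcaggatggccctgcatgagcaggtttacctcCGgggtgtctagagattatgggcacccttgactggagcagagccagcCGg

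The Oxct1 window had 48% G and C bases and 3 CpG dinucleotides, and the first Bdh1 window had 50% and 3. The second Bdh1 window, which lies downstream of the first start, had 59% and 5. The medians over all 32851 start windows of the same length were 51.5% and 4. In G and C content, 35.9% of all windows were below the Oxct1 window, 43.2% below the first Bdh1 window and 72.1% below the second. On both strands, 4 motifs were searched by their letters, and none was found in any of these windows. They were the nuclear receptor half-site AGGTCA, held by 11.4% of all windows, the GC box GGGCGG by 24.6%, the CCAAT box CCAAT by 28.4% and the E-box CACGTG by 4.34%. The absence of a match says only that these letters are not in these windows.

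Oxct1, the enzyme of ketone body use, was 3.32-fold higher in the DSS library. The control library held 5245 of its reads and the DSS library 13311. Scaled to library size with TMM factors, this was 73.3 and 243 CPM, the reads scaled to a library of common size. The log2 ratio of scaled counts, DSS over control, was 1.73, and its 95% counting interval ran from 1.69 to 1.78. A gene entered the compared set with a minimum of 10 reads in the control or the DSS library, and of these 17235 genes 10.1% had a ratio at or above that of Oxct1.

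Acat1, the thiolase of the last step, was lower in the DSS library, at 0.445 of its control level. Its reads numbered 7257 in the control and 2466 under DSS, or 101 and 45.1 CPM. The log2 ratio was -1.17, and its interval ran from -1.24 to -1.10. A ratio this low or lower was found in 17.0% of the compared genes.

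Bdh1, the dehydrogenase that interconverts both ketone bodies, had the smallest difference of the 3 enzymes, with a DSS level of 0.767 of the control. It had 9270 reads in the control and 5429 under DSS, or 130 and 99.3 CPM. The log2 ratio was -0.38, and its interval ran from -0.43 to -0.33. Bdh1 therefore lay inside the lines of 1 and -1 on the log2 scale that are used here to describe size.

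Of the 3 enzymes, 1 was past the line of 1 in the DSS library, where 19.3% of all compared genes were, and 1 was at -1 or less, where 20.2% of all compared genes were. The enzymes were above 0 in 1 case and below 0 in 2, beside 48% and 52% of all compared genes. These shares depend on the scaling. When libraries were scaled by their totals only, the median log2 ratio of all compared genes moved from -0.06 to -0.31, and the share of genes past either line that were higher in the DSS library moved from 48.9% to 37.1%. Under such total counts the log2 ratios were 1.48 for Oxct1, -1.42 for Acat1 and -0.64 for Bdh1. Relative to the median of all compared genes they were 1.79, -1.11 and -0.33.

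**Figure D1:**
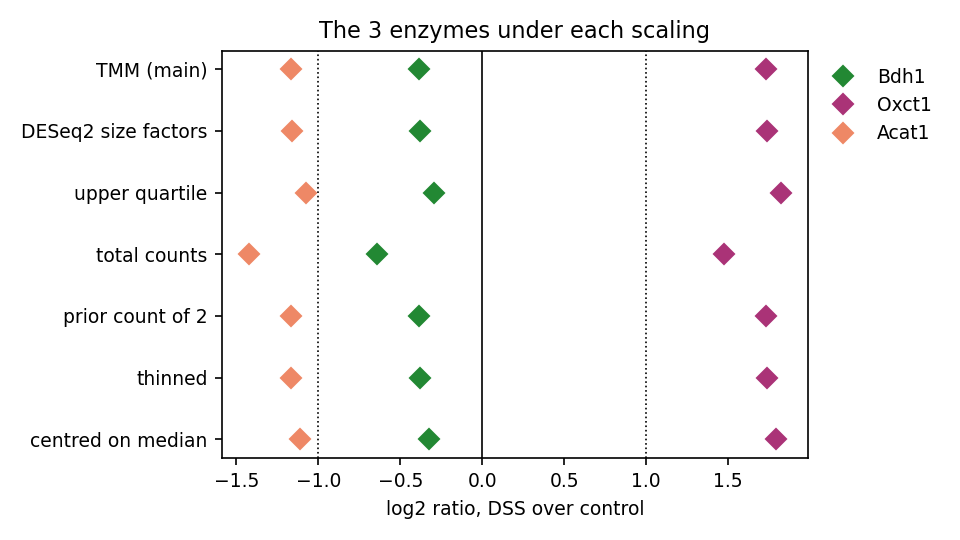
The log2 ratio (DSS over control, horizontal axis) of each enzyme under 7 ways of scaling or adjusting the counts (vertical axis), with dotted lines at 1 and -1; each point is 1 gene in 1 pair of libraries. Oxct1 lies to the right of 1, between 1.48 and 1.82, Acat1 to the left of -1 and Bdh1 between -0.64 and -0.29 in all 7.

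The ratio of a pair of genes within a library does not depend on library scaling. Oxct1 had 0.566 counts for each Bdh1 count in the control library and 2.45 in the DSS library, a change of 4.33-fold, or 2.12 on the log2 scale with an interval from 2.05 to 2.18. Against Acat1, the same count ratio went from 0.723 to 5.40, a log2 difference of 2.90 with an interval from 2.82 to 2.98. For Bdh1 over Acat1 it went from 1.28 to 2.20, a log2 difference of 0.79 with an interval from 0.70 to 0.87. None of these 3 intervals included 0, but they cover counting error alone, and the spread between cultures is not known.

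To set the genes beside each other, levels were divided by the length of the longest protein-coding transcript, which was 3122 bases for Bdh1, 3527 for Oxct1 and 3405 for Acat1. In CPM per kilobase, the control library had 41.5 for Bdh1, 29.8 for Acat1 and 20.8 for Oxct1. In the DSS library the levels were 69.0 for Oxct1, 31.8 for Bdh1 and 13.2 for Acat1. Oxct1 was thus the lowest of the 3 in the control library and the highest in the DSS library, and the counting intervals of neighbors in either order did not overlap. The level depends on which transcript is used, since the median length of the coding transcripts gave 80.8 and 61.9 for Bdh1 and 27.8 and 92.4 for Oxct1 in the control and DSS libraries, with the same order in each library. With the longest transcripts, Oxct1 made up 22.6% of the summed level of the 3 enzymes in the control and 60.5% under DSS, while Bdh1 was 45.1% and 27.9% and Acat1 32.4% and 11.6%. The summed level per kilobase was 92.0 in the control and 114 under DSS, and this difference depends on the scaling. Before scaling, the reads of the 3 enzymes summed to 21772 in the control and 21206 under DSS.

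**Figure D2:**
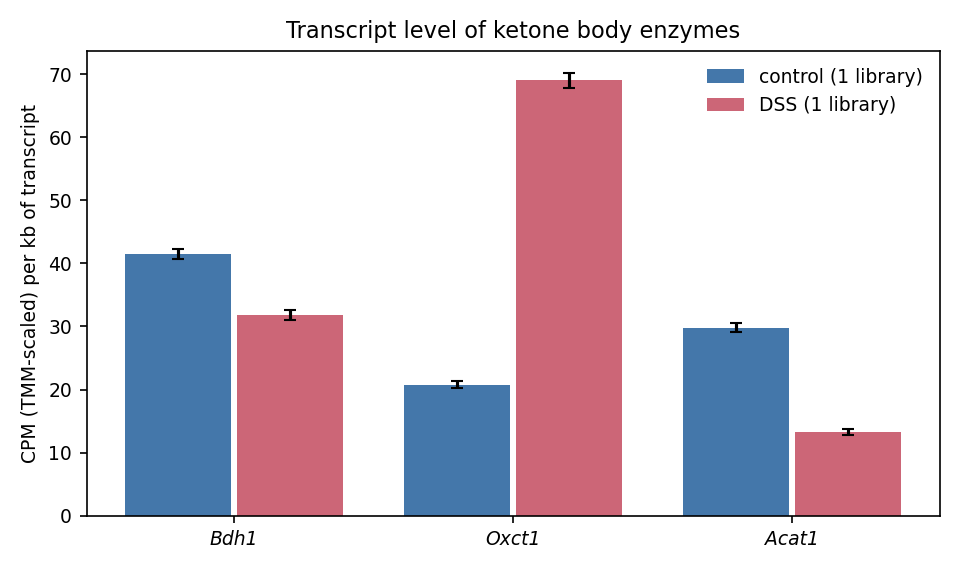
Level of each gene in CPM per kilobase of its longest protein-coding transcript (vertical axis) in the control (blue) and DSS (red) library, with bars for 1 library each and 95% counting intervals as error bars. Oxct1 goes from 20.8 to 69.0, Bdh1 from 41.5 to 31.8 and Acat1 from 29.8 to 13.2, so that Oxct1 is the lowest in the control and the highest in the DSS library.

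Oxct2a and Oxct2b are close copies of Oxct1 known from testis, and both had few counts. Oxct2a had 1 read in the control and 18 under DSS, and the log2 ratio of 4.56 had a counting interval from 1.90 to 9.94. Oxct2b had 21 and 29 reads, for a ratio of 0.85 (interval -0.01 to 1.74). In the list of ketone body use, 2 of 5 members, Oxct1 and Oxct2a, reached 1 and 1 was at -1 or less, beside 19.3% and 20.2% of all compared genes, and Oxct2a did so from 1 control read. Its median of 0.85 is the value of Oxct2b and was 0.24 when a minimum of 10 reads was asked of each library.

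The coding sequence around the longest run that Oxct1 shares with these copies is shown because it bears on where reads could be counted. The run is 18 bases long with either copy. In the 90-base window, capitals mark bases of the copies that differ from Oxct1, which are 19 in Oxct2a and 20 in Oxct2b. The Oxct1 window joins exons 13 and 14 of 17, at chr15:4101820-4128863 on the plus strand with the intron between them. The Oxct2a window lies in the single exon of that gene at chr4:123322315-123322404 on the minus strand, and the Oxct2b window at chr4:123117471-123117560 on the plus strand (GENCODE vM21, GRCm38).
Oxct1: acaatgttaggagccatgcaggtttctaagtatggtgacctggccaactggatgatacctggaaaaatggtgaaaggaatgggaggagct
Oxct2a: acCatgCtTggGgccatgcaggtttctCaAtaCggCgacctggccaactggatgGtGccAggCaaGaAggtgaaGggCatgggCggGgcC
Oxct2b: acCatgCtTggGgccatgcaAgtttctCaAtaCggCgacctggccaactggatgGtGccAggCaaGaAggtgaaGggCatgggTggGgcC

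No stretch of 50 bases in the longest coding transcripts of Oxct1, Bdh1 or Acat1 occurred in a transcript of another annotated gene. The transcripts were compared in the same direction only, so overlap with antisense genes was not covered. Acat1 shared at most 13 bases in a row with Acat2 or Acat3. GENCODE places the antisense gene Gm15743 inside Bdh1 and the gene BC037032 over the start of Oxct1, each on the opposite strand. A further antisense gene inside Oxct1, Gm15632, is not listed in the table. Gm15743 had 30 reads in the control and 29 under DSS, and BC037032 had 9 and 43, far below the reads of Bdh1 and Oxct1. The libraries were made with a stranded kit, and whether the counting used strand is not given in the sources used here.

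Cytosolic enzymes that handle acetoacetyl-CoA did not move as one group. Hmgcs1, the synthase of the cholesterol pathway, had 32917 reads in the control and 53180 under DSS. Its log2 ratio was 1.08 (interval 1.06 to 1.10), or 0.82 with total counts. Acat2, the cytosolic thiolase, was at -0.44 and its copy Acat3 at -0.41. Aacs, which activates acetoacetate in the cytosol, was at -0.02, and its interval from -0.08 to 0.04 included 0. Of these 4 genes, 1 was at 1 or more and none at -1 or less, beside 19.3% and 20.2% of all compared genes, with a median of -0.22.

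Among 7 compared transport genes, 2 reached 1 and 1 was at -1 or less, with a median of 0.55. These are 28.6% and 14.3% of the list, near the 19.3% and 20.2% of all compared genes for so short a list. Slc16a1, which encodes the monocarboxylate transporter MCT1 that carries ketone bodies, lactate and butyrate, had 12279 reads in the control and 4355 under DSS. Its log2 ratio was -1.11, within an interval from -1.16 to -1.06. Bsg, the chaperone that brings MCT1 to the membrane, had 168253 and 70421 counts and a ratio of -0.87, or -1.12 with total counts. Slc16a3 (MCT4), at 0.55, and Slc16a6 (MCT7), at 0.35, were above 0. The sodium-coupled carrier Slc5a8 rested on 75 and 266 counts, for a ratio of 2.21 (interval 1.84 to 2.60). Emb, with 75 and 94 counts, was at 0.71 and Slc16a8, with 6 and 39, at 3.09 with an interval from 1.84 to 4.62. Slc16a7 and Slc5a12 are not listed in the table.

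Among the receptor genes, Hcar2, the receptor for 3-hydroxybutyrate, had 2 and 5 counts and Hcar1 had 6 and 9, too few to be compared. Ffar3 had 22 and 23 counts and a log2 ratio of 0.45 (interval -0.46 to 1.36). Ffar2, a receptor for short-chain fatty acids, had 88 and 177 counts and a ratio of 1.40 (interval 1.02 to 1.78). Ffar2 was thus the 1 gene at 1 or more among the 2 compared receptor genes, whose median was 0.92, and 2 genes are too few to set beside the 19.3% of all compared genes.

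Of the 8 regulators, none was at 1 or more and 1 was at -1 or less, beside 19.3% and 20.2% of all compared genes, with a median of 0.12, or -0.13 with total counts. That gene was Sirt5, a mitochondrial deacylase, with 626 and 219 counts and a log2 ratio of -1.13. Ppargc1a, a coactivator of mitochondrial genes, was at 0.96, and it was at 1.05 with upper quartile factors. Ppara, the nuclear receptor of the fasting response, was at 0.43 and Foxo1 at 0.37. Sirt3 was at 0.19 and Hnf4a at 0.05, and both were below 0 with total counts. Foxa2 was at -0.38. Fgf21 had 22 and 13 counts, and its interval from -1.48 to 0.68 included 0.

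**Figure D3:**
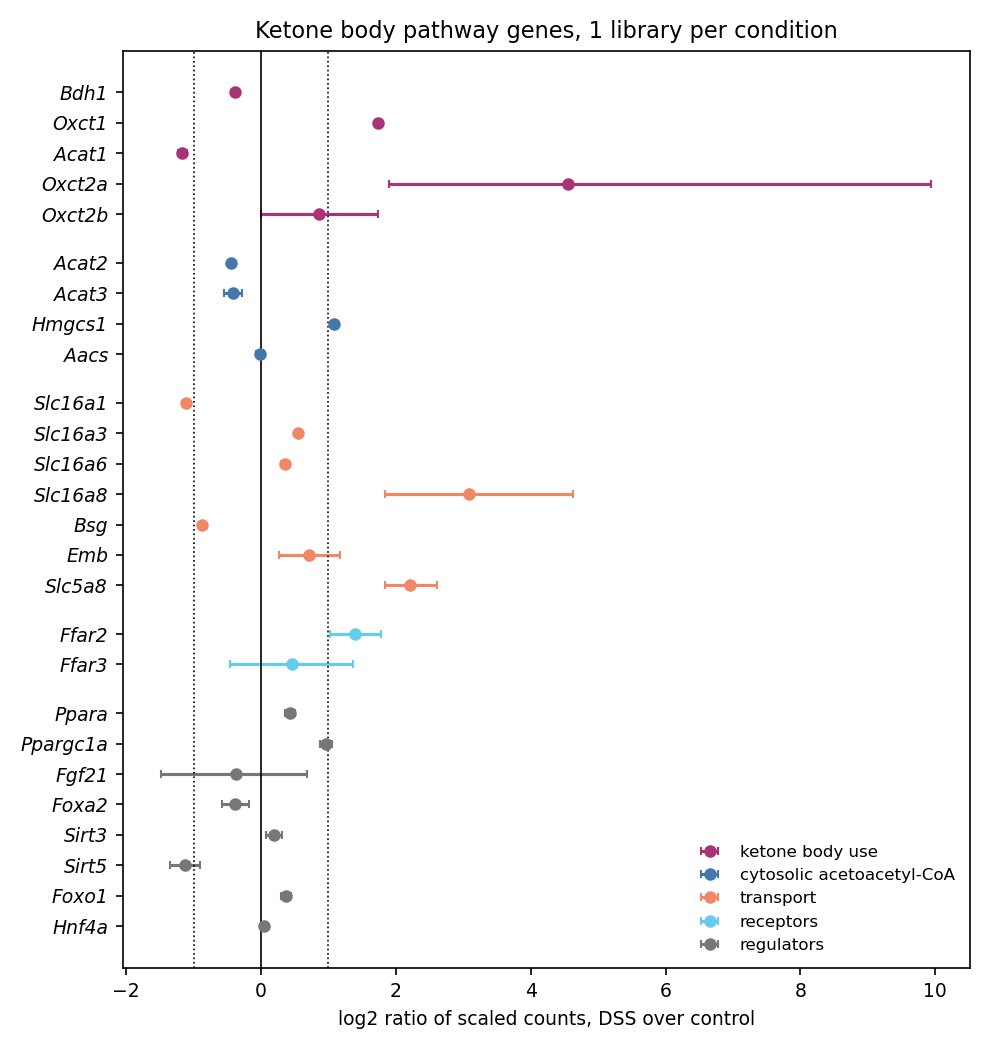
The log2 ratio of scaled counts (DSS over control, horizontal axis) of each compared gene of the ketone body lists (vertical axis), colored by role, with 95% counting intervals as bars and dotted lines at 1 and -1. Oxct1 at 1.73 lies apart from Bdh1 at -0.38 and Acat1 at -1.17, and the widest intervals, those of Oxct2a and Slc16a8, belong to genes with under 10 counts in the control library.

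The neighboring mitochondrial pathways were described from lists of fatty acid beta-oxidation, the TCA cycle and the breakdown of branched-chain amino acids. A minimum of 100 reads in either library left 53 genes of these lists. No gene among them had a log2 ratio as high as Oxct1, 4 were at or below Acat1 and 16 were at or below Bdh1. The nearest ratio to Oxct1 was that of Ogdh, a subunit of the 2-oxoglutarate dehydrogenase complex that makes succinyl-CoA, at 1.27. Acaa2, a thiolase of beta-oxidation, came next at 0.94. Dlst and Dld, partner subunits of Ogdh, were at 0.58 and -0.09. Nearest to Acat1 were Pcca, a subunit of propionyl-CoA carboxylase, at -1.16 and Idh3a, a subunit of isocitrate dehydrogenase, at -1.18. Idh3b and Idh3g, partner subunits of Idh3a, were at -0.55 and -0.83, and Idh3g was at -1.09 with total counts. Nearest to Bdh1 were Acads, the short-chain acyl-CoA dehydrogenase, at -0.36 and Eci2 at -0.31. Likeness here is the difference of log2 ratios over 2 libraries.

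Beta-oxidation genes lay closer together than the 3 enzymes. Of 18 compared genes, 14 were above 0, none was at 1 or more and none at -1 or less, and the median was 0.21, which turned to -0.05 with total counts. Of all compared genes, 48% were above 0, 19.3% at 1 or more and 20.2% at -1 or less. The beta-oxidation genes ran from -0.36 for Acads to 0.94 for Acaa2. Of 17 TCA cycle genes, 1 was at 1 or more, Ogdh with 23251 and 42897 counts, and 1 at -1 or less, Idh3a with 13029 and 4393, each 5.88% of the list. The TCA cycle median was 0.10, or -0.16 with total counts.

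In the list of branched-chain amino acid breakdown, whose isoleucine branch ends with ACAT1, 14 of 18 compared genes were below 0, 4 were at -1 or less and none was at 1 or more. The median was -0.69, beside -0.06 for all compared genes, and the list does not hold Acat1. The lowest was Bckdhb, a subunit of the branched-chain keto acid dehydrogenase, with 622 and 72 counts and a log2 ratio of -2.72. Its partner subunit Bckdha was at -0.11 with an interval from -0.25 to 0.03, and Dbt of the same complex at -0.96. Hsd17b10, which catalyzes the isoleucine step before ACAT1, had 6378 and 1673 counts and a ratio of -1.54. Acadsb and Echs1, which act on isoleucine before Hsd17b10, lay inside the lines, at -0.48 and -0.12. Mccc2, a subunit of the leucine enzyme methylcrotonyl-CoA carboxylase, was at -1.31, and its partner subunit Mccc1 at -0.01. Pcca was the fourth gene past the line, and its partner subunit Pccb was at -0.70. The highest was Bcat2, the mitochondrial aminotransferase, at 0.27. Of all compared genes, 52% were below 0, beside 77.8% of this list, and 19.3% were at 1 or more. At -1 or less were 20.2% of all compared genes, beside 22.2% of this list.

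**Figure D4:**
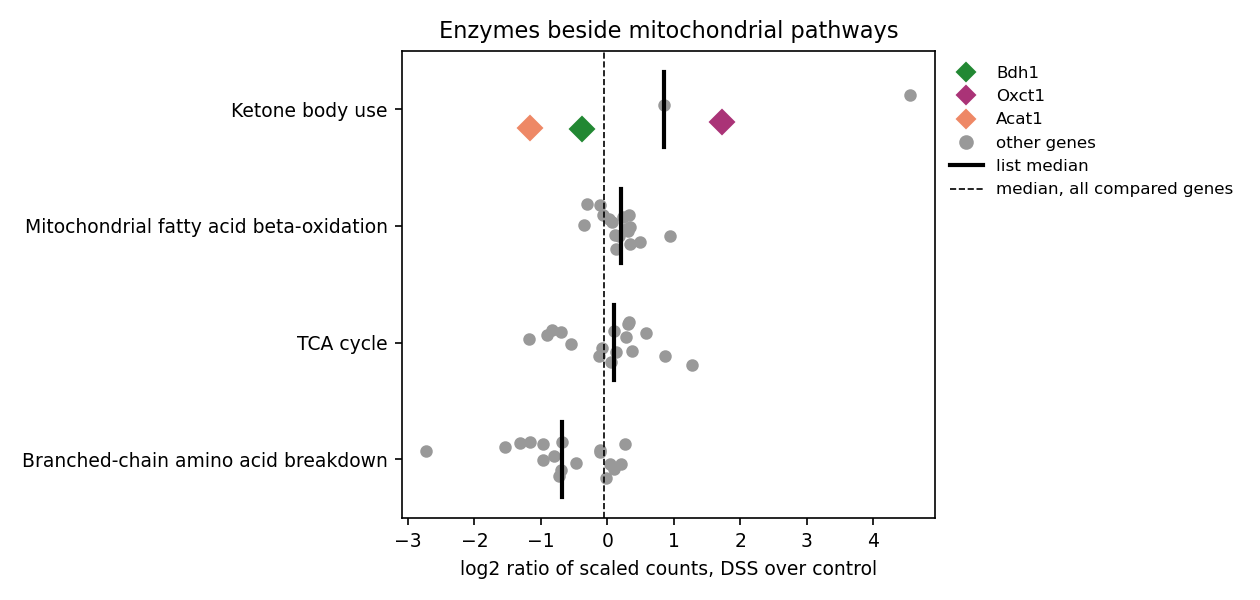
The log2 ratio of scaled counts (DSS over control, horizontal axis) of each compared gene in 4 lists (vertical axis), with diamonds for the 3 enzymes, gray points for other genes, thick bars for list medians and a dashed line for the median of all compared genes. The beta-oxidation genes gather between -0.36 and 0.94, and Oxct1 lies to the right of all genes of the 3 lower lists.

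Levels of cell type markers also differed between the libraries. All 8 enterocyte markers were at 1 or more, from 1.78 for Fabp1 to 5.27 for Apoa1, and their summed level went from 2789 to 25775 CPM. All 5 stem cell markers were at -1 or less, from -1.25 for Smoc2 to -9.59 for Olfm4, with a summed level of 1464 CPM in the control and 204 under DSS. Of 5 proliferation markers, 4 were at -1 or less, and the list ran from -4.70 for Mcm5 to -0.71 for Pcna. For comparison, the line of 1 was reached by 19.3% of the whole compared set, and the line of -1 by 20.2%. The labels call the cells intestinal stem cells, and both libraries held all 7 epithelial markers, with summed levels of 6249 and 9634 CPM. These markers ran from -0.03 for Cdh1 to 1.25 for Vil1, and 2 of the 7 were at 1 or more. Mesenchymal markers summed to 1.44 and 2.10 CPM over the 4 of 8 listed in the table, and immune markers to 14.0 and 24.2 CPM over 3 of 6. The immune markers ran from -0.56 for Lyz2 to 1.14 for Itgam. Col1a2, Col3a1, Dcn, Lum, Ptprc, Cd3e and Adgre1 are not listed. The part of these differences in the values of Oxct1, Acat1 and Bdh1 was not tested, and in bulk RNA fewer cells of a type and less RNA per cell cannot be told apart.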

How the data were processed

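The deposited values are raw read counts, not normalized, from TruSeq Stranded mRNA libraries of 1 control and 1 DSS-treated culture. The submitters' processing notes name HISAT2 and StringTie, and the genome build, annotation and counting settings are not given in the sources used here. No listed gene is at 0 in either library. The files per sample, though named FPKM, repeat these counts and were not used. The libraries held 65493032 (control) and 59746968 (DSS) counts.

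Counts were scaled with TMM factors (1.09 and 0.915, edgeR 4.0.16, R 4.3.3). Log2 ratios have exact Clopper-Pearson 95% intervals, pair differences exact conditional odds ratio intervals, and levels exact Poisson intervals, computed with scipy 1.17.1. Only the log2 ratio intervals were tested on simulated data. Those data were Poisson counts scaled by totals, the counting model that the intervals assume. All these intervals cover counting error only. Genes with a minimum of 10 reads in either library were compared by size, against lines of 1 and -1 on the log2 scale. Lengths came from GENCODE vM21 transcripts by symbol, for 112 of 115 listed genes. The genes named are all of the ketone body lists and the highest and lowest of each other list with at least 100 counts in one library. The genes nearest to each enzyme in log2 ratio are also named. Hsd17b10, Mccc2, Acadsb, Echs1 and the antisense genes were chosen after their values were seen. So were the partner subunits Bckdha, Dbt, Mccc1, Pccb, Dlst, Dld, Idh3b and Idh3g. Some genes of the lists are not reported here. The members and lists were chosen with earlier results of these data known. The alternatives tried were total counts, size factors of DESeq2 1.42.0, upper quartile factors, addition of a prior count of 2, thinning, other count minimums and other transcript lengths. Centering on the median, RefSeq-paired transcripts and lists without the 3 enzymes were added after seeing the data.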

Additional observations from a re-analysis of the deposited data

How the results depend on the processing

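The log2 ratios of Oxct1, Acat1 and Bdh1 kept their direction and their side of the lines of 1 and -1 with total counts, upper quartile factors, DESeq2 size factors, centering on the median, thinning of the deeper library and an added prior count, and moved beyond their counting intervals under some. With total counts they were 1.48 (Oxct1), -1.42 (Acat1) and -0.64 (Bdh1), with upper quartile factors 1.82, -1.08 and -0.29, and centered on the median of all compared genes 1.79 for Oxct1 and -0.33 for Bdh1. The median transcript length gave 27.8 and 92.4 CPM per kilobase for Oxct1 and 80.8 and 61.9 for Bdh1 in the control and DSS libraries. With total counts, 14 of the 79 compared pathway genes were at -1 or less in place of 8. Of all 17235 compared genes, 4508 were at -1 or less in place of 3486, since this scaling lowers every gene by 0.26. The list medians turned to -0.051 for beta-oxidation, -0.16 for the TCA cycle and -0.13 for the regulators. The differences between the enzymes within a library do not depend on scaling. No paired analysis was possible because each condition has 1 library and no test was made. Depth did not limit the 3 enzymes, each with at least 2466 counts, but did limit Oxct2a, Oxct2b, Slc16a8, Fgf21 and the receptors.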
